A study of Homo sapiens with 11 samples.

Results

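Expression of T47D cells given E2-BSA together with ICI was compared with that of cells given E2-BSA alone, and E2-BSA together with G15 served as the contrast. T47D is an established luminal breast cancer cell line, and E2-BSA is estradiol coupled to bovine serum albumin. The comparison was defined by the treatments in the sample labels and used 3 of the 11 arrays of the series: the second E2-BSA array, 1 array of E2-BSA with ICI and 1 array of E2-BSA with G15. All cells spent 4 h in medium with 10% charcoal stripped serum and then 3 h in treatment. E2-BSA was given at 1 µM and each antagonist at 10 µM. The other arrays used beside them were 2 untreated controls, ICI alone at 10 µM, G15 alone at 10 µM, BSA at 1 µM, ethanol at 0.1%, estradiol at 1 µM and the first E2-BSA array. The labels give ICI only by that abbreviation, and do not say whether the paired arrays of a group stem from different cultures.

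Estrogen receptors are ligand-activated transcription factors that bind estrogen response elements in DNA and also act through partner factors already bound there. Luminal breast cancer cells answer estrogen within hours by raising a well known group of growth-related genes and lowering a second group that includes growth-restraining genes. GPER is a membrane G-protein-coupled receptor that also binds estradiol and signals through kinases, and G15 is used to block it. Compounds of the ICI series used in such experiments block the nuclear receptors.

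The deposited values were centred per probe set, so each value below is a log2 distance from that probe set's middle over the series and says nothing of how strongly a gene was expressed. For the same reason the levels of luminal markers such as keratins could not be set against those of stromal or leukocyte markers to check the cell line. The first principal component held 71.0% of the variance and split the arrays into a set of 3 (control 1, estradiol, E2-BSA 1) and a set of 8 (all others). The labels name no batch. The SD of the values on an array was 0.16 to 0.19 in the set of 8 and 0.40 to 0.42 in the set of 3. All antagonist differences were therefore taken inside the set of 8, with 1 array a side, and are sizes without a test.

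Genes that were higher with E2-BSA in the set of 3 were lower with ICI in the set of 8, and little different with G15. That set gave 107 probe sets of 77 genes that were higher by 1 or more on E2-BSA 1 than on control 1, called induced below, with the values just inside and outside the limit at 1.003 and 0.9991. None of the arrays of the antagonist differences entered this choice. Over the 107 probe sets the median value was -0.23 on control 2, -0.13 on BSA and -0.12 on ethanol. It was 0.57 on E2-BSA 2, 0.50 on E2-BSA with G15 and 0.05 on E2-BSA with ICI. With ICI alone the median was -0.36, and with G15 alone it was -0.18. The E2-BSA and E2-BSA with G15 arrays thus stood together at the top, and the E2-BSA with ICI array lay between them and the arrays without E2-BSA.

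The median difference between E2-BSA with ICI and E2-BSA was -0.46 over these 107 probe sets, and 101 of them were lower with ICI. In all, 46 of the 107 (43.0%) were lower by 0.5 or more, against 0.668% of all 54613 probe sets. The median difference between E2-BSA with G15 and E2-BSA was -0.07, with 73 probe sets lower. Only 2 of the 107 (1.87%) were lower by 0.5 or more with G15, against 0.808% of all probe sets. Both differences share the E2-BSA 2 array. The direct difference between the antagonist combinations, which does not use that array, had a median of -0.36, with 98 of 107 lower with ICI and 41 (38.3%) lower by 0.5 or more, against 0.851% of all probe sets (1 of the 107 was higher by 0.5 or more, against 0.873%). The list median had an SD of 0.065 over control 2, BSA and ethanol (n = 3 arrays without agonist or antagonist).

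ICI did not bring the induced probe sets to the level of the arrays without E2-BSA. Against control 2 the median difference was 0.80 for E2-BSA 2, 0.76 for E2-BSA with G15 and 0.31 for E2-BSA with ICI, and 101 of the 107 were still higher than control 2 with ICI present. These comparisons share control 2. Against the matching antagonist alone, the E2-BSA difference was 0.52 in the presence of ICI and 0.72 in the presence of G15. ICI alone stood at a median of -0.11 against control 2 with 74 of 107 lower, and G15 alone at 0.02 with 49 lower.

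**Figure D1:**
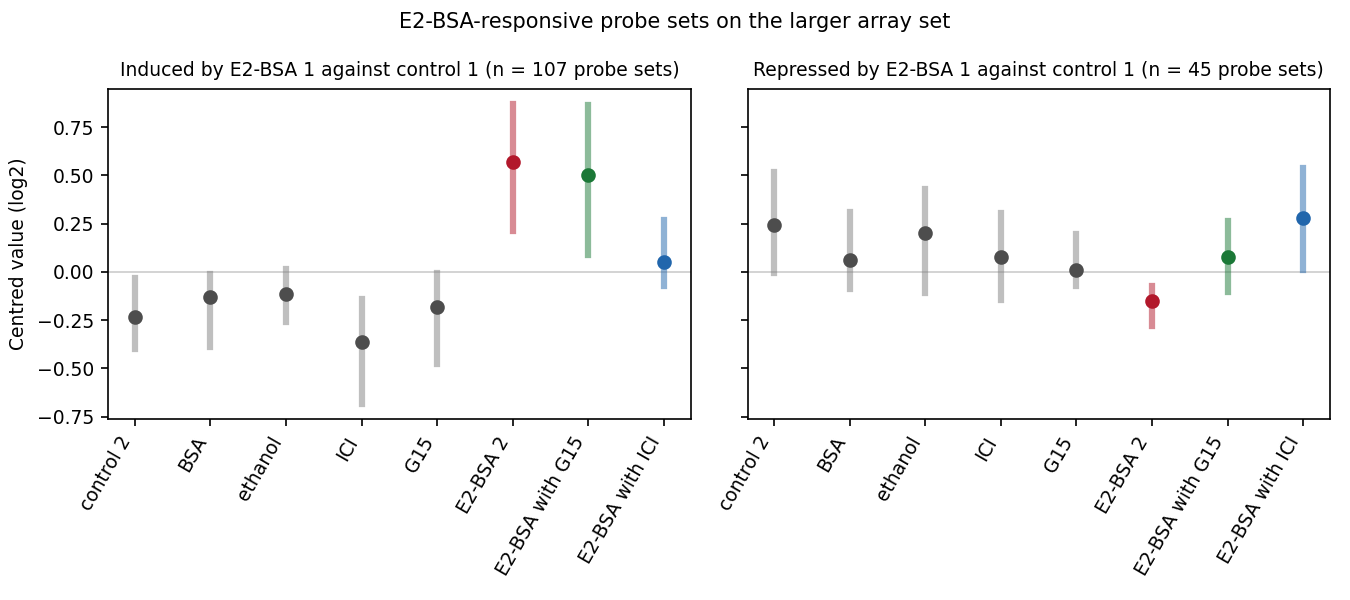
Median (points) and interquartile range (bars) of the centred log2 values of 107 probe sets higher and 45 lower by 1 or more on E2-BSA 1 than on control 1, on each of the 8 arrays of the larger set, 1 array per condition. The induced probe sets were at 0.57 with E2-BSA, 0.50 with E2-BSA and G15, and 0.05 with E2-BSA and ICI.

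Over all probe sets few differences reached 1. Between E2-BSA with ICI and E2-BSA, 14 of 54613 probe sets (0.0256%) were higher by 1 or more with ICI and 9 (0.0165%) were lower, 23 (0.0421%) in all. The 9 lower ones were all higher on E2-BSA 1 than on control 1, and 7 of them were among the 107 induced probe sets. Between E2-BSA with G15 and E2-BSA, 9 (0.0165%) were higher and 3 (0.00549%) were lower, 12 (0.022%) in all. None of the 3 was among the induced probe sets. Since only 107 of all 54613 probe sets are induced ones, that absence says little about G15. Between the ICI and G15 combinations, 7 (0.0128%) were lower with ICI and 1 (0.00183%) was higher, 8 (0.0146%) in all, and 5 of the 7 were among the induced probe sets. BSA against control 2, measured in the same way, gave 0 higher and 42 lower, and ethanol against control 2 gave 91 higher and 19 lower. Differences of this size were thus no more frequent with ICI than between arrays without agonist or antagonist.

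A limma fit used all 11 arrays, with the array set as a block and the single-array groups assumed to vary like control and E2-BSA. It had 1 residual degree of freedom, which compares E2-BSA minus control between the array sets. With Benjamini-Hochberg adjustment it called 0 of 54613 probe sets for ICI against E2-BSA and 0 for G15 against E2-BSA. For ICI against G15 it called 1 probe set (0.00183%), which carries no gene symbol (-1.58, limma adjusted p = 0.0292). For ICI against E2-BSA the lowest limma adjusted p was 0.0572, reached by MYC among others, and 8 probe sets were under 0.06, of which 5 name 1 gene. For G15 against E2-BSA the lowest limma adjusted p was 0.151.

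The transcription factor MYC, an early estrogen target that drives cell growth, had the largest difference of the induced genes. Its value was -0.93 on control 2, -1.01 on BSA, -0.47 on ethanol, 0.77 on E2-BSA 2, 0.47 on E2-BSA with G15 and -0.93 on E2-BSA with ICI. E2-BSA with ICI thus matched control 2 and E2-BSA with G15 stayed near E2-BSA. MYC was lower by 1.70 with ICI and by 0.30 with G15 relative to E2-BSA 2. ICI alone gave the lowest value of any array of the set, -2.80, and G15 alone gave -1.24, so the ICI difference was -1.87 without E2-BSA and -1.70 with it. Against the matching antagonist alone, MYC was higher with E2-BSA by 1.87 with ICI present and by 1.71 with G15 present. E2-BSA 2 was above control 2 by 1.69, so the E2-BSA difference was not smaller with ICI present.

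KCNK5, a potassium channel raised by estrogen in breast cancer cells, was at -0.49, -0.57 and -0.73 on control 2, BSA and ethanol. It was at 1.42 on E2-BSA 2, 1.34 on E2-BSA with G15 and 0.26 on E2-BSA with ICI. ICI alone gave -0.96 and G15 alone 0.03. All E2-BSA arrays were above all others, with the ICI combination the lowest of them, at -1.16 from E2-BSA 2.

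CXCL12, the chemokine ligand of CXCR4, kept more of its E2-BSA value. It was at 0.00 on control 2, -0.00 on BSA and -0.22 on ethanol, and at 1.5 on both E2-BSA 2 and E2-BSA with G15. With ICI and E2-BSA it was at 0.69, and with ICI alone at -0.78. Its second probe set was also lower with ICI, by 0.44.

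RBM24, an RNA-binding protein known from muscle differentiation, was at -0.62, -0.40 and -0.12 on control 2, BSA and ethanol, at 0.91 on E2-BSA 2 and at 0.82 on E2-BSA with G15. On E2-BSA with ICI it was at -0.03 and on ICI alone at -1.10. The ICI combination lay just above ethanol, and the G15 combination near E2-BSA.

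To show the DNA next to these genes, the 250 bases before the RefSeq start (GRCh38.p14) of KCNK5, CXCL12 and RBM24 are printed 5′ to 3′ on the gene's strand, since each is an induced gene that was lower by 0.5 or more with ICI and holds 1 GGTCA arm of the estrogen response element, set in capitals (TGACC where it lies on the other strand). The windows are chr6:39229476-39229725 (minus strand) for KCNK5, chr10:44385098-44385347 (minus strand) for CXCL12 and chr6:17281814-17282063 (plus strand) for RBM24.
KCNK5: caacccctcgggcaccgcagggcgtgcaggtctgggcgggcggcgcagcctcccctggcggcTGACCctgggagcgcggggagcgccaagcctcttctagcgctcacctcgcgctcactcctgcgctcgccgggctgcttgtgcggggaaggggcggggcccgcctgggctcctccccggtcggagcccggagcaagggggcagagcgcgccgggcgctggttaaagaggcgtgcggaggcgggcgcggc
CXCL12: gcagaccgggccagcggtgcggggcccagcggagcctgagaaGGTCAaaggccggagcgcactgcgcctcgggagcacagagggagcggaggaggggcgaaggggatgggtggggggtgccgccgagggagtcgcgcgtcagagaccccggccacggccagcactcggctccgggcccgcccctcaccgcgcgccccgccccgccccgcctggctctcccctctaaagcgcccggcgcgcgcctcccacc
RBM24: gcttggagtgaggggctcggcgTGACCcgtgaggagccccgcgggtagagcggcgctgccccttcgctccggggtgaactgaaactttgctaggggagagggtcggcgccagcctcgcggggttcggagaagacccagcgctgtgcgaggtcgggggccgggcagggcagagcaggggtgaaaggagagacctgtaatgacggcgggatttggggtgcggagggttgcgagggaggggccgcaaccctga

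Of the 77 induced genes, 56 had a RefSeq promoter window. The full element GGTCANNNTGACC, searched on both strands, occurred in 0 of these 56 and in 0.0439% of all 27305 windows. The single arm GGTCA, which is also part of the full element, searched the same way, occurred in 19 of 56 (33.9%), against 33.1% of all windows. Among the 26 induced genes with a window that were lower by 0.5 or more with ICI, 11 (42.3%) held it. A match of 5 letters is a description of the window and no evidence of binding.

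Of the 8 probe sets that name 1 gene and were lower by 1 or more with ICI, those not described above belong to MAFF, EGR3, GATA4, HEY2, CISH and the non-coding RNA LINC01016. MAFF, a small transcription factor that pairs with NRF2, was at -1.02 on control 2, -0.61 on BSA, 3.87 on ethanol, 1.21 on E2-BSA 2, 0.92 with G15 and -0.07 with ICI. Both of its probe sets were lower with ICI (-1.29 and -0.39), but ethanol stood far above every other array. GATA4, a zinc-finger transcription factor, was at 1.41 on E2-BSA 2, 1.49 with G15 added and 0.25 with ICI added, and at 0.02 on control 2. Its other 4 probe sets differed by -0.10 to 0.18 with ICI, so the value rests on 1 of 5 probe sets. HEY2, a transcriptional repressor of the Notch pathway, was at 1.20 on E2-BSA 2, 0.95 with G15 and 0.04 with ICI, and at -0.10 on control 2, and both of its probe sets were lower with ICI (-1.16 and -0.86). CISH, an inhibitor of cytokine receptor signalling through STAT5, was at 1.14 on E2-BSA 2, 1.12 with G15 and 0.11 with ICI, and at -0.18 on control 2, and all 3 of its probe sets were lower with ICI (-1.03, -0.96 and -0.41). EGR3, an early growth response transcription factor, was at 0.90 on E2-BSA 2, 0.57 with G15 and -0.29 with ICI, and at -0.50 on control 2. EGR3 was higher by 0.46 on E2-BSA 1 than on control 1 and the CISH probe set with the largest ICI difference by 0.88, so neither of these 2 probe sets is among the induced ones. For EGR3, GATA4, HEY2 and CISH the ICI combination lay near control 2 and the G15 combination near E2-BSA. Against ICI alone, the ICI combination was still higher by 0.58 for GATA4, 0.51 for HEY2 and 0.74 for CISH. For EGR3 that difference was -0.05.

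NRIP1, a corepressor of nuclear receptors and itself an estrogen target, was lower by 0.85 with ICI and differed by 0.01 with G15. NR5A2, an orphan nuclear receptor, was lower by 0.84 and 0.60 with ICI at its 2 probe sets that were induced, and by 0.06 and 0.03 with G15. The secreted glycoprotein STC2 was lower by 0.78 with ICI and by 0.16 with G15. MYB, a transcription factor of proliferating cells, was lower by 0.67 with ICI and by 0.17 with G15. The adrenergic receptor ADRA2A was lower by 0.77 with ICI and by 0.12 with G15. CCND1, the cyclin that carries cells through G1, differed from E2-BSA 2 by -0.85 with ICI and by -0.48 with G15. Unlike the others here, it was thus clearly lower with G15 too.

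Other induced genes differed less with ICI. RASGRP1, an activator of RAS, was at 1.09 on E2-BSA 2, 1.03 with G15 and 0.62 with ICI, and at -0.45 on control 2. PGR, the progesterone receptor, was at 0.20 on E2-BSA 2, 0.02 with G15 and -0.02 with ICI, and at -0.37 on control 2. The receptor tyrosine kinase RET was at 0.84, 0.71 and 0.45 on the same arrays and at -0.61 on control 2. For GREB1, a coactivator of the estrogen receptor, the 3 probe sets disagreed, with differences of 0.39, -0.30 and -0.06 for ICI.

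**Figure D2:**
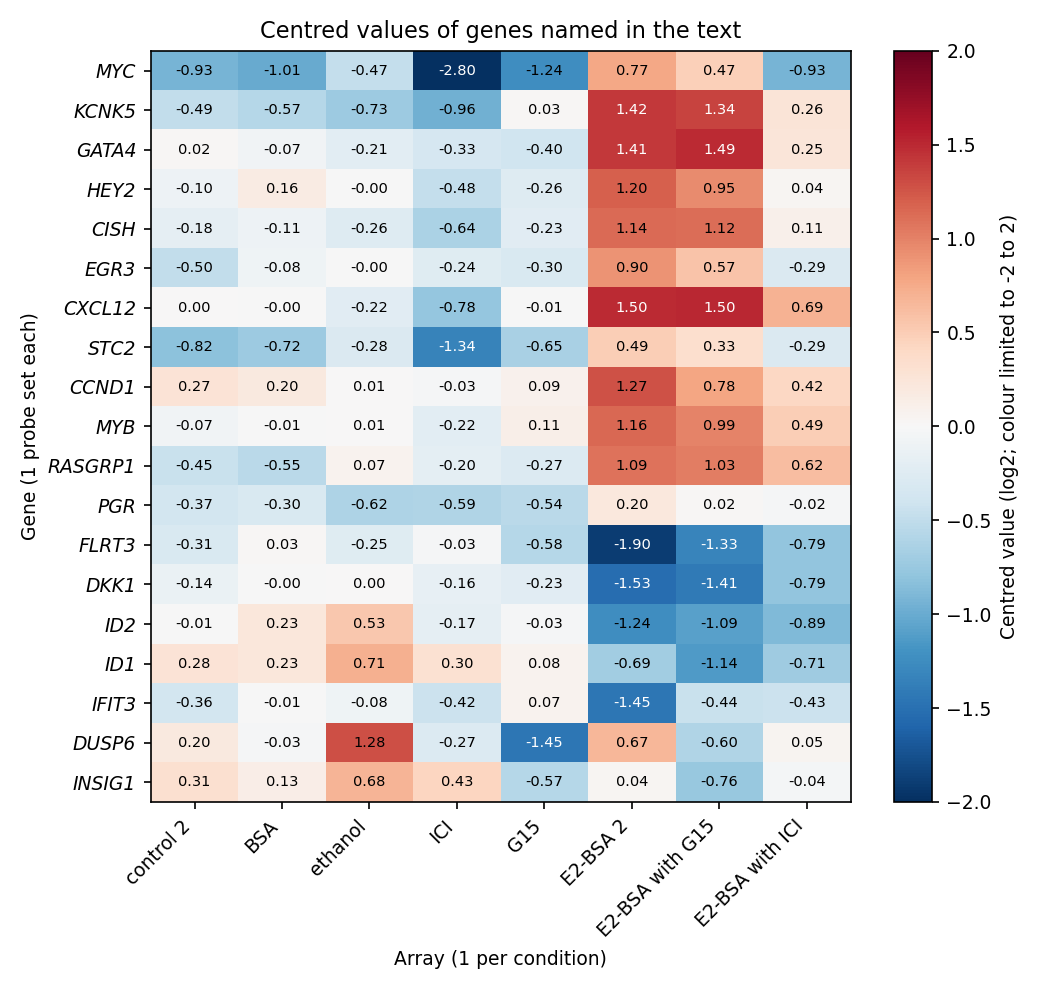
Centred log2 values of 19 genes (rows, 1 probe set each) on the 8 arrays of the larger set (columns, 1 array per condition); red is above and blue below the probe set's middle. From MYC down to EGR3 the ICI combination lies below E2-BSA by 1 or more while the G15 combination lies near E2-BSA; DUSP6 and INSIG1 at the bottom are lowest on the arrays with G15.

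On a list of 39 known estrogen-induced genes, the median difference was -0.39 with ICI, and 36 of 39 were lower. In all, 14 were lower by 0.5 or more (35.9%), against 1.14% of all 19775 genes. With G15 the median was -0.10, with 29 of 39 lower and 0 lower by 0.5 or more, against 1.42% of all genes, a count near that share. The medians over all genes were -0.01 and 0.00. Among the members not yet named, the retinoic acid receptor RARA was lower by 0.74 with ICI, the trophoblast glycoprotein TPBG by 0.63 and the ubiquitin ligase SIAH2 by 0.52. This list overlaps the induced probe sets and is no separate evidence.

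The receptors themselves differed little. ESR1, the estrogen receptor alpha, was at -0.08 on E2-BSA 2, 0.07 with ICI and -0.07 with G15. ESR2, the estrogen receptor beta, was at 0.33, 0.03 and 0.19 on these arrays. GPER1, the membrane receptor that G15 blocks, was at 0.12, 0.00 and 0.21. Of 12 receptor and cofactor genes, only NRIP1 was lower by 0.5 or more with ICI (8.33%, against 1.14% of all genes). The coactivator NCOA2 and the pioneer factor FOXA1 were higher by 0.58 and 0.51 (16.7%, against 1.64% of all genes higher by 0.5 or more). NCOA2 was also higher with G15, by 0.55.

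Probe sets that were lower with E2-BSA in the set of 3 were higher with ICI in the set of 8 and, to a lesser size, with G15. The set of 3 arrays gave 45 probe sets lower by 1 or more on E2-BSA 1 than on control 1 (just inside and outside the limit at -1.0002 and -0.9992), called repressed below, which name 18 genes; 24 of them (53.3%) carry no symbol. Their median value was 0.24 on control 2, 0.06 on BSA, 0.20 on ethanol, -0.15 on E2-BSA 2, 0.08 on E2-BSA with G15 and 0.28 on E2-BSA with ICI. On ICI alone it was 0.08, and on G15 alone it was 0.01. The median difference was 0.46 with ICI, with 40 of 45 higher and 20 higher by 0.5 or more, against 1.76% of all probe sets. With G15 it was 0.28, with 37 of 45 higher and 8 higher by 0.5 or more, against 1.38% of all probe sets. The SD of this median over control 2, BSA and ethanol was 0.096. Against the matching antagonist alone, the median E2-BSA difference was 0.23 with ICI present, and 31 of 45 were higher. With G15 present it was 0.03, and 24 of 45 were higher. With ICI the median value lay near that of control 2. With G15 it lay near that of BSA, between control 2 and E2-BSA. These positions depended on how the probe sets were chosen. The median difference between E2-BSA with ICI and control 2 was 0.02 over the 45 probe sets. It was -0.36 over the 12 probe sets lower by 1 or more on estradiol than on control 1 (10 of 12 lower), and -0.48 over the 5 lower on both estradiol and E2-BSA 1. The G15 difference from E2-BSA 2 was 0.28, -0.0022 and 0.0239 over these 3 choices.

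FLRT3, a membrane protein of cell adhesion and FGF signalling, was the lowest named gene on E2-BSA 2. It was at -0.31 on control 2, 0.03 on BSA, -0.25 on ethanol, -1.90 on E2-BSA 2, -1.33 with G15 and -0.79 with ICI. Both of its probe sets were higher with ICI (1.11 and 0.59), and neither combination reached the arrays without E2-BSA. DKK1, a secreted inhibitor of Wnt signalling, was at -0.14 on control 2, -1.53 on E2-BSA 2, -1.41 with G15 and -0.79 with ICI. Here too ICI gave a partial return, and the G15 value stayed near E2-BSA.

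The ID proteins, which hold back basic helix-loop-helix factors and are direct targets of BMP signalling, showed less of a return. ID1 was at 0.28 on control 2, -0.69 on E2-BSA 2, -0.71 with ICI and -1.14 with G15. ID2 was at -0.01 on control 2, -1.24 on E2-BSA 2, -0.89 with ICI and -1.09 with G15. Over 17 feedback genes of the TGF-beta, BMP and Wnt pathways the median difference was 0.07 with ICI and -0.00 with G15. Over 21 known estrogen-repressed genes it was 0.08 with ICI and 0.07 with G15, against -0.01 and 0.00 over all genes. CCNG2, an atypical cyclin linked to cell cycle arrest, was higher by 0.69 with ICI and differed by -0.02 with G15.

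Interferon-stimulated genes had the highest list median with ICI. Over 19 of them the median was 0.24, with 8 higher by 0.5 or more (42.1%), against 1.64% of all genes, and with G15 it was 0.19, with 1 higher by 0.5 or more (5.26%), against 1.67% of all genes. IFIT3, an antiviral protein of the interferon response, was at -0.36 on control 2, -0.01 on BSA, -0.08 on ethanol, -1.45 on E2-BSA 2, -0.43 with ICI and -0.44 with G15. E2-BSA 2 was the lone low array, and both antagonist combinations lay near control 2. Its second probe set was higher by 0.29 with ICI and by 0.46 with G15. The GTPase MX1 was higher by 0.63, the interferon regulatory factor IRF9 by 0.62 and IFI44 by 0.61 with ICI, while with G15 their differences were 0.33, 0.42 and 0.00. G15 alone was above control 2 for MX1 (0.95 against 0.37) and IRF9 (0.80 against 0.50). Since both combinations were set against the same E2-BSA array, a value particular to that array enters both.

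Genes with large differences in the G15 contrast included some that were also lower with ICI. DUSP6, the phosphatase that switches off ERK and is itself raised by ERK signalling, was at 0.20 on control 2, -0.03 on BSA, 1.28 on ethanol, 0.67 on E2-BSA 2, 0.05 with ICI and -0.60 with G15. G15 alone gave the lowest value, -1.45. The arrays with G15 were the lowest of the set, and all 3 probe sets were lower with G15 than on E2-BSA 2 (-0.99, -1.27 and -0.38) and with ICI (-0.48, -0.62 and -0.11). DUSP6 also varied among arrays without agonist, and it was lower on E2-BSA 1 than on control 1 by 0.65. Over 12 ERK feedback genes the median was -0.24 with ICI and -0.25 with G15, with 4 (33.3%) and 2 (16.7%) lower by 0.5 or more, against 1.14% and 1.42% of all genes. SPRY2, an inhibitor of receptor tyrosine kinase signalling, was lower by 0.60 with G15 and by 0.28 with ICI, and DUSP4, a phosphatase of the same family as DUSP6, by 0.24 and 0.59.

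INSIG1, a sterol sensor that restrains cholesterol synthesis, was at 0.31 on control 2, 0.13 on BSA, 0.68 on ethanol, 0.04 on E2-BSA 2 and -0.04 with ICI. It was at -0.76 on E2-BSA with G15 and -0.57 on G15 alone, so the arrays with G15 were the lowest. All 3 probe sets were lower with G15 (-0.21, -0.80 and -0.45), and with ICI they differed by 0.08, -0.08 and 0.23. Over 14 genes of cholesterol synthesis and uptake the median was -0.08 with G15, with 12 lower, and 0.06 with ICI, with 4 lower. INSIG1 was the one member lower by 0.5 or more with G15 (7.14%, against 1.42% of all genes). ADRB1, the beta-1 adrenergic receptor, was lower by 1.14 with G15 and by 0.94 with ICI at 1 probe set, while its other 2 probe sets differed by 0.08 and 0.50 with G15.

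**Figure D3:**
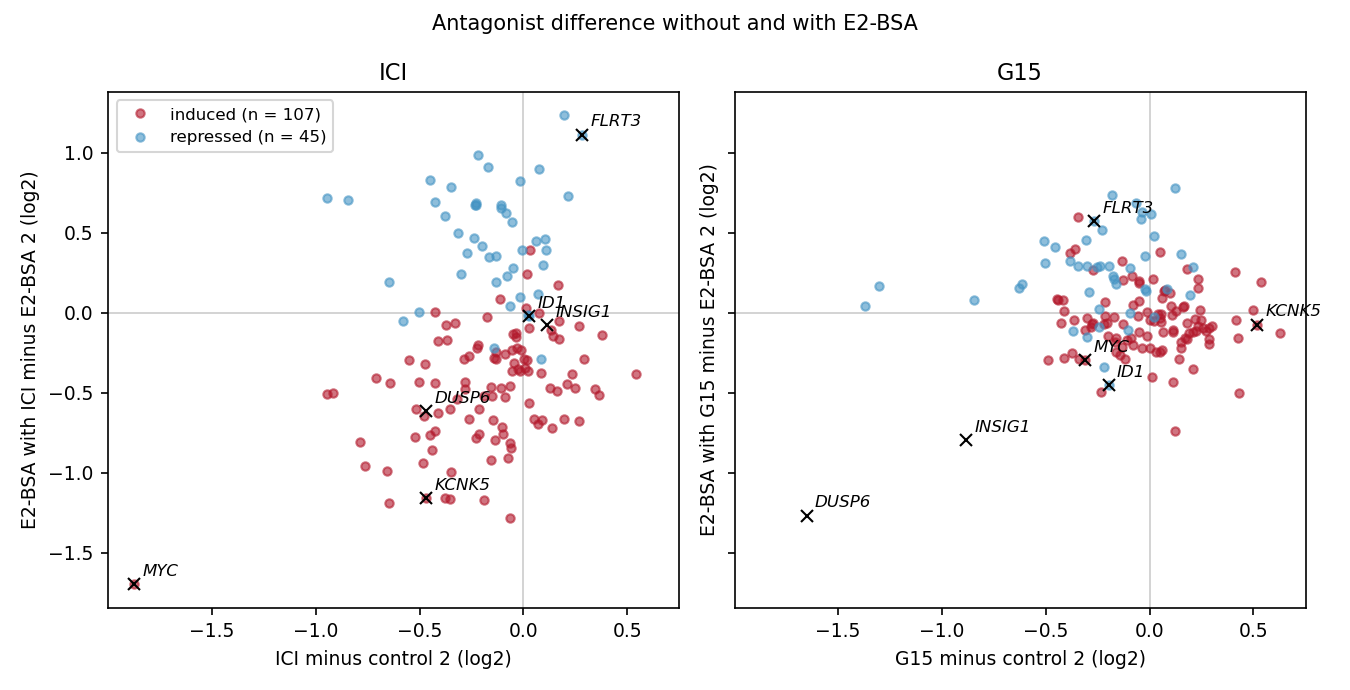
Antagonist difference without E2-BSA (horizontal, log2, antagonist alone minus control 2) and with E2-BSA (vertical, log2, combination minus E2-BSA 2) for ICI and G15; points are the 107 induced and 45 repressed probe sets and crosses mark 6 named genes, with no array in both axes. With ICI the induced points lie mostly below 0 on the vertical axis (101 of 107) and with G15 they lie around it, while DUSP6 and INSIG1 are low on both axes with G15.

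Early signalling genes had like medians with both antagonists, with a few members far apart. Over 22 immediate early genes, which cells switch on within minutes of a stimulus, the median was -0.19 with ICI and -0.17 with G15. Of the 22, 4 (18.2%) were lower by 0.5 or more with ICI and 1 (4.55%) with G15, against 1.14% and 1.42% of all genes. MYC is also on the estrogen-induced list, so these counts are not separate from those of that list. Set directly against the G15 combination, the ICI combination was lower by 0.5 or more for 4 of the 22 (18.2%), against 1.37% of all genes, down to -1.40 for MYC, and the median was 0.02. Over 10 genes reported as GPER targets it was -0.17 with ICI and -0.11 with G15. Among these EGR1, which is also on the immediate early list, was lower by 0.56 with G15 and by 0.32 with ICI, and FOS by 0.21 and 0.28. EGR1 was at 1.72 on ethanol and -0.31 on control 2, a span larger than either antagonist difference.

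The medians of growth and stress lists lay close to 0. The median over 15 ribosome biogenesis genes was -0.13 with ICI and -0.03 with G15, over 20 DNA replication genes -0.12 and -0.14, and over 25 mitosis genes 0.12 and 0.08. Of 16 hypoxia targets, 4 were lower by 0.5 or more with ICI (25%, against 1.14% of all genes), among them the glycolysis regulator PFKFB3 (-0.72), the kinase PDK1 (-0.62) and the peptide hormone ADM (-0.57), although the list median was -0.09. With G15 these 3 genes differed by -0.16, -0.09 and -0.14. Over 12 genes of the FOXO type, linked to growth arrest, the median was 0.13 with ICI and 0.00 with G15. Of the 12, 3 (25%) were higher by 0.5 or more with ICI, against 1.64% of all genes. With G15 it was 0 of 12, against 1.67% of all genes. The ubiquitin ligase subunit FBXO32 was higher by 0.70 with ICI and by 0.04 with G15.

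**Figure D4:**
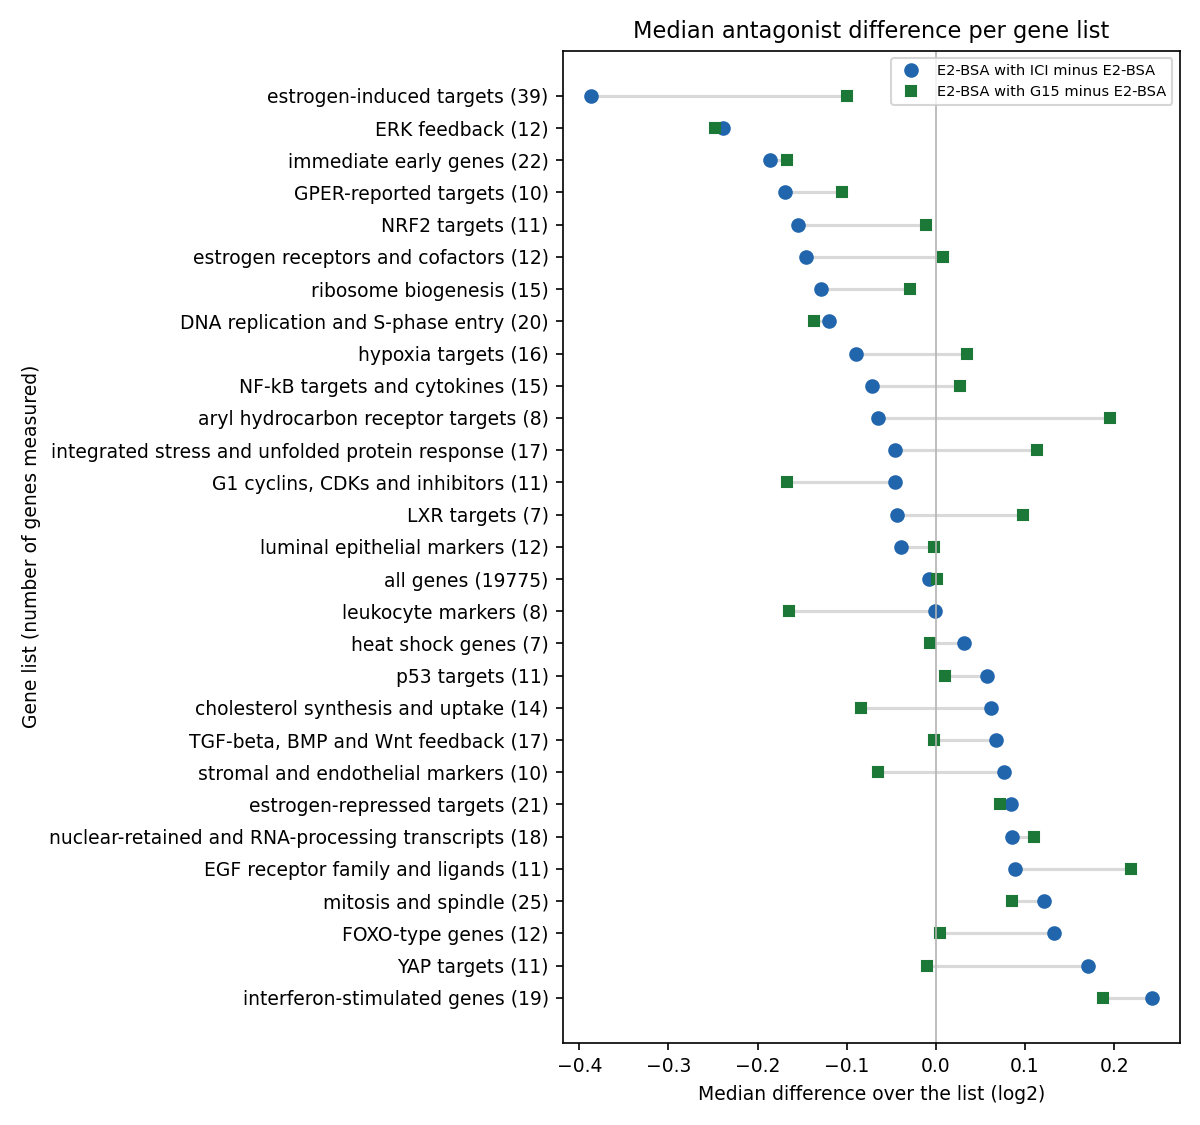
Median log2 difference per gene list for E2-BSA with ICI minus E2-BSA (circles) and E2-BSA with G15 minus E2-BSA (squares), with the number of genes measured in brackets; both share the E2-BSA 2 array. The estrogen-induced list lies lowest for ICI (-0.39) and at -0.10 for G15, and the interferon list lies highest for ICI (0.24).

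Markers of other cell types moved little. The median difference over luminal epithelial markers was -0.04 with ICI and -0.00 with G15, over stromal and endothelial markers 0.08 and -0.06, and over leukocyte markers -0.00 and -0.16. The 18S ribosomal RNA control was at 0.15 on E2-BSA with ICI, -0.24 on E2-BSA 2 and -0.20 on E2-BSA with G15. The 5′ minus 3′ difference of ACTB was -0.04, -0.07 and -0.05 on the same arrays, and that of GAPDH was -0.01, -0.19 and -0.28. The part of the 18S difference in the ICI results was not tested.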

How the data were processed

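The series holds 11 arrays of T47D cells in 9 groups, of which control and E2-BSA have 2 arrays and the others 1. The deposited table was read as log2 values, from their size and spread, centred per probe set by the authors; the summarisation, normalization and log base are not given in the sources used here, and the number of arrays limits the precision. From 54675 probe sets 62 array controls were left out. Of the remaining 54613, 41091 name 1 gene, 1801 several and 11721 none; 19775 genes are named. The members and gene lists were chosen with earlier results of these data known.

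Differences were taken within the 8 arrays that the first principal component sets together, and counted at 1 and 0.5. Lists used, per gene, the probe set with the largest SD after each array set's mean was removed. The named genes are the 12 highest and lowest differences per comparison (6 each for ICI minus G15) among probe sets that span under 0.75 over control 2, BSA and ethanol, the 12 most induced and 8 most repressed, up to 4 members of each list and a short set of known estrogen genes; GATA4, CISH and HEY2 come from the first part, and NR5A2, SIAH2, RARA and TPBG were added after their values were seen. limma 3.58.1 (R 4.3.3) fitted group means plus array set, with Benjamini-Hochberg adjustment and a threshold of 0.05. It was also run on simulated data with planted changes, but how many of them it recovered is not reported here. A count of 0 calls is therefore no sign that nothing differed. The limma p-values rest on how far the E2-BSA minus control difference varied between the array sets. That spread may be technical, and it also holds any difference in response between the sets and their unlike SDs.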

Additional observations from a re-analysis of the deposited data

How the results depend on the processing

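No paired analysis was possible because only control and E2-BSA have replicate numbers in common and each combination has 1 array. Counts at 1 or more for E2-BSA with ICI minus E2-BSA were 23, and 234 after quantile normalization of all arrays, 12 over probe sets with 1 gene, 4 over gene means and 603 against the mean of both E2-BSA arrays, which lie in different array sets. For E2-BSA with G15 minus E2-BSA the count was 12, and 89, 6, 1 and 611 under these settings and 5 after quantile normalization of the larger set. For ICI minus G15 it was 8, and 93 and 2 with all-array quantiles and gene means. The single limma call for ICI against G15 became 0 without the block, with quantiles and over probe sets with 1 gene, and the cause was not tested. It was also 0 when each replicated array was left out, but those fits had no block either, so the loss cannot be put down to an array. The induced median for ICI was -0.26 when chosen at 0.75, -0.67 at 1.5 and -0.98 (11 probe sets) with quantiles; for G15 it was -0.19 with quantiles; for ICI minus G15 it was -0.21, -0.57, -0.50 (chosen on both E2-BSA 1 and estradiol) and -0.79. The repressed median for ICI was 0.29 when chosen on estradiol alone and 0.30 on both E2-BSA 1 and estradiol, for G15 -0.0022 and 0.0239, and for ICI minus G15 0.19 at 0.75; no probe sets were repressed at 1.5 or with quantiles. List medians beyond 0.2 numbered 8, and 21 with quantiles.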

Other observations

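Probe sets without a gene symbol were common among those higher with an antagonist. They made up 21.5% of all probe sets, 55.1% of the 963 higher by 0.5 or more with ICI and 21.9% of the 365 lower by 0.5 or more. With G15 they made up 44.1% of the 751 higher and 18.8% of the 441 lower. Of the 14 probe sets higher by 1 or more with ICI, 10 carry no symbol; their median value was 0.49 on control 2, 0.40 on BSA, 0.38 on ethanol, -0.20 on E2-BSA 2, 0.22 on E2-BSA with G15 and 0.85 on E2-BSA with ICI. E2-BSA 2 was the lowest of these arrays, so the size of the difference rests partly on that array.

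Of the named genes higher by about 1 with ICI, FLRT3 and IFIT3 had a second probe set that was also higher, while PDE4DIP, CFLAR and BBX rested on 1 probe set of several. PDE4DIP, an anchoring protein for phosphodiesterase, was higher by 1.07 at 1 of 4 probe sets, with the others between -0.25 and 0.40. CFLAR, an inhibitor of caspase-8, was higher by 1.05 at 1 of 14, with the others between -0.31 and 0.21. The transcription factor BBX was higher by 0.99 at 1 of 7, with the others between -0.09 and 0.25.

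The long non-coding RNA LINC01016 was singled out after its values were seen. At 1 of 4 probe sets it was at -0.09 on control 2, 1.80 on E2-BSA 2, 1.92 with G15 and 0.63 with ICI, a difference of -1.17 with ICI and 0.12 with G15. That probe set belongs to the induced ones, so it is no separate observation. Over all 4 probe sets the differences ran from -1.17 to 0.06 with ICI, with 3 lower. With G15 they ran from -0.18 to 0.34.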
